A study of Mus musculus with 4 samples.

Results

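The 10 genes described here are effectors and feedback regulators of canonical Wnt signalling, chosen by name: Ctnnb1, Lef1, Tcf7, Tcf7l1, Tcf7l2, Axin2, Rnf43, Znrf3, Nkd1 and Apcdd1. All 10 were found among the 27933 genes of the count tables, and all 10 passed the low-count filter that left 13348 genes for testing. RNA was sequenced from mouse melanocyte stem cells, which supply the pigment cells of growing hair, sorted out of skin by flow cytometry. The control group (n = 2) came from mice given saline, and the stressed group (n = 2) from mice given RTX, as the labels abbreviate it, by injection 12 h before harvest. The 4 libraries were made with Smart-Seq V4, a full-length cDNA kit. Strain, genotype, age, the markers used for the sort and whether the replicates came from separate animals are, in the sources used here, not given. The p-values therefore reflect only how far these 4 libraries scatter, and that scatter may be technical. Paired values below are given for replicate 1 and then replicate 2 of a group.

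Wnt ligands bind Frizzled receptors and LRP co-receptors, which stops the destruction complex from degrading beta-catenin, the protein encoded by Ctnnb1. Beta-catenin then enters the nucleus and pairs with the DNA-binding factors encoded by Lef1, Tcf7, Tcf7l1 and Tcf7l2. Among the genes switched on are brakes on the pathway itself, such as Axin2, Rnf43, Znrf3, Nkd1 and Apcdd1. In the hair follicle, Wnt signals from the epithelium accompany the activation and differentiation of melanocyte stem cells, and LEF1 acts on the promoter of the pigment cell regulator Mitf.

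Between 9273652 and 11854280 reads were assigned to genes in each library. Levels are given as CPM, counts per 1000000 after scaling of the libraries by the trimmed mean of M values (TMM). Melanocyte lineage markers (10 genes, led by Dct and Pmel) summed to 23591 and 22861 CPM (control) against 41017 and 38521 CPM (stressed). Keratinocyte markers (12 genes, led by Krt14 and Krt15) summed to 25569 and 16345 CPM (control) against 10266 and 9235 CPM (stressed). None of these keratinocyte markers was at 0. In 9 of the 12 both stressed values were below both control values, beside 22.9% of all tested genes, and in none above. Of the 10 melanocyte lineage markers 6 lay higher in both stressed libraries, beside 21.8% of all tested genes, and none lower. Markers of T cells, which use Tcf7 and Lef1, summed to between 0.0909 and 1.61 CPM, with Cd3g and Thy1 highest, and 3 of the 7 present in the files (Cd2, Il7r and Cd28) had at most 3 counts in each library. Endothelial markers (5 genes, led by Pecam1 and Emcn) summed to between 0.375 and 3.0 CPM, muscle markers (4, led by Myh11 and Tagln) to between 5.57 and 11.3 CPM, and markers of other immune cells (5, led by Cd74 and Cd207) to between 6.10 and 38.7 CPM.

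Since the TCF/LEF factors recognise a short core sequence, the RefSeq promoter windows of the members (GRCm38.p6, 250 bases before to 50 after each annotated start) were searched for CTTTGA and CTTTGT on both strands. Of 32851 windows in the table, 31.2% held a match. For 8 of the 10 members there were 15 windows, of which 3 held a match, in Lef1, Tcf7l1 and Tcf7l2. The windows with matches at the internal starts of Lef1 and Tcf7l2 are shown together with that of Axin2, the member most used as a reporter of Wnt activity. Each is printed as the 250 bases before the start, 5′ to 3′ on the strand of the gene, with matches on either strand in capitals.
Lef1, the fourth start, chr3:131156044-131156293, plus strand: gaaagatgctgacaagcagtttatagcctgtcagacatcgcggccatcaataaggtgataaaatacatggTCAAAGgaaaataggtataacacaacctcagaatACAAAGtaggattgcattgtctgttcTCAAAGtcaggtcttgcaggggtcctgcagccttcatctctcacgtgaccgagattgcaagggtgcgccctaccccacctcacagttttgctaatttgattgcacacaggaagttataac
Tcf7l2, the second start, chr19:55895071-55895320, plus strand: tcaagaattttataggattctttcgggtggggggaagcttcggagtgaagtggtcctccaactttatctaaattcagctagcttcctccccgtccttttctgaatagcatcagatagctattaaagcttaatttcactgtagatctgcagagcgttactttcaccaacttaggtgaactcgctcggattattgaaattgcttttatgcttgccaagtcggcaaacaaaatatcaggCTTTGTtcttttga
Axin2, chr11:108920099-108920348, plus strand: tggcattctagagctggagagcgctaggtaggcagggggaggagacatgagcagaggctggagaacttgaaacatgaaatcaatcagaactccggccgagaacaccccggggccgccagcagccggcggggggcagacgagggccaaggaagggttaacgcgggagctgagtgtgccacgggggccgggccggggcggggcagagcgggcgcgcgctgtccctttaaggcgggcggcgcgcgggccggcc
The Lef1 window held 3 matches, all on the opposite strand, at positions -180, -146 and -120 from the start. The Tcf7l2 window held 1 match at position -14. This Lef1 start lies 45997 bases downstream of the first annotated start of the gene, and this Tcf7l2 start 153511 bases downstream of its first. Neither printed stretch overlaps a GENCODE M21 exon, and the other 3 Lef1 windows and the first Tcf7l2 window held no match. The Axin2 window held none of these letters. The counts are summed over each gene, so they do not show which start was used, and a match is not a binding site.

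Rnf43 and Apcdd1, a pair of inhibitors of Wnt reception, lay lowest in stressed relative to control cells, while the TCF/LEF gene Lef1 lay highest. Each log2 fold change is the fitted ratio of stressed to control levels, with its standard error (SE), and p-values were adjusted by the Benjamini-Hochberg method over all tested genes. By edgeR's quasi-likelihood test none of the 10 members passed an adjusted p of 0.05, and of all tested genes 0.0% did. At an unadjusted p below 0.05 stood 3 members by edgeR (Lef1, Rnf43 and Apcdd1), against 12.8% of all tested genes (5.17% higher and 7.6% lower), and 3 by limma-voom, which also called none. DESeq2's Wald test called 2 members, Rnf43 and Apcdd1, both lower, where 2.67% of all tested genes were called lower, 1.73% higher and 4.4% either way. Of the 10, 4 (Ctnnb1, Lef1, Tcf7 and Tcf7l1) had both stressed values above both control values, a pattern of 21.8% of tested genes. Another 4 (Tcf7l2, Axin2, Rnf43 and Apcdd1) lay lower in both, a pattern of 22.9% of tested genes, and Znrf3 and Nkd1 overlapped. These 8 stand beside 44.7% of tested genes that lay apart in either direction. The median log2 fold change of the members was 0.055, beside -0.0091 over all tested genes. With 2 libraries against 2, the smallest two-sided p of an exact permutation test is 0.333, so single values were tested only within the fits across all genes.

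**Figure D1:**
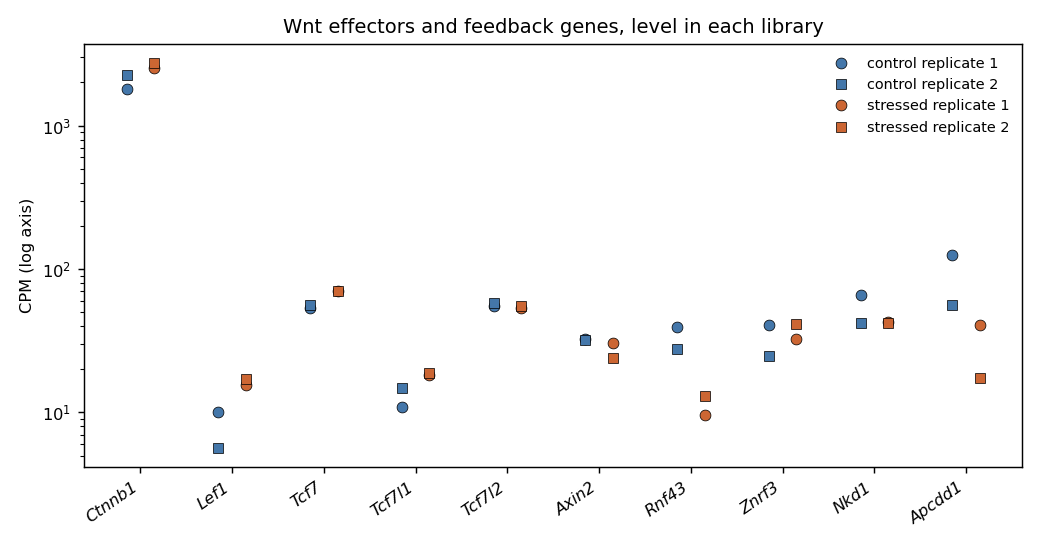
Level of each of the 10 genes in CPM, on a log axis, with 1 point per library: blue for control, orange for stressed, circles for replicate 1 and squares for replicate 2. The points of Rnf43 and Apcdd1 separate downward and those of Lef1 upward, while Znrf3 and Nkd1 overlap.

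Rnf43 encodes a membrane ubiquitin ligase that removes Frizzled receptors from the cell surface. The gene lies on chromosome 11 at 87662722-87735539 (mm10, plus strand). It stood at 39.2 and 27.7 CPM (control) against 9.58 and 13.0 CPM (stressed), from counts of 366, 327, 102 and 143. The lower control was 2.13 times the higher stressed library, a wider gap than the 1.42-fold and 1.36-fold within the control and stressed pairs. Rnf43 fell by DESeq2, with a log2 fold change of -1.56 (SE 0.39, adjusted p = 0.00332). By edgeR the value was -1.57 (SE 0.32), a 2.96-fold lower level, with an unadjusted p of 0.00221 and an adjusted p of 0.149. The DESeq2 call was lost on leaving out control replicate 1, stressed replicate 1 or stressed replicate 2 (adjusted p = 0.229, 0.43 and 0.253), with values between -1.29 and -1.80, and was kept without control replicate 2 (adjusted p = 0.0106). With edgeR, Rnf43 passed the threshold without control replicate 1 (adjusted p = 0.0452), without control replicate 2 (0.0169) and without the low-count filter (0.00293).

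Znrf3 (chromosome 11, 5276324-5444847, mm10, minus strand) encodes the partner ligase with the same task as Rnf43. Its levels were 40.6 and 24.7 CPM (control) against 32.3 and 41.2 CPM (stressed). The groups overlapped, with an edgeR log2 fold change of 0.17 (SE 0.31, adjusted p = 0.879) whose sign turned without control replicate 2 (-0.14). Scaled to 1000 CPM of melanocyte markers, Znrf3 stood at 1.72 and 1.08 CPM (control) against 0.787 and 1.07 CPM (stressed), just apart. Per 1000 CPM of keratinocyte markers it was higher in stressed cells, at 1.59 and 1.51 CPM (control) against 3.15 and 4.46 CPM (stressed). Per kilobase of exon, which allows levels of different genes to be compared, Rnf43 stood at 1.16 and 1.35 times Znrf3 in the control libraries and at 0.357 and 0.38 times Znrf3 in the stressed libraries. Per kilobase, Rnf43 was thus the more abundant of the ligase pair in both controls and the less abundant in both stressed libraries. The control ranges of the pair overlapped, and in CPM Rnf43 lay just below Znrf3 in control replicate 1 (39.2 against 40.6 CPM).

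Apcdd1 encodes a membrane glycoprotein that binds Wnt and LRP proteins and inhibits the signal at the cell surface. It lies on chromosome 18 at 62922327-62953195 (mm10, plus strand). Its levels were 126 and 56.5 CPM (control) against 40.6 and 17.5 CPM (stressed). All stressed values were below the controls, but both pairs were wide, at 2.23-fold between the controls and 2.33-fold between the stressed libraries. Apcdd1 fell by DESeq2, with a log2 fold change of -1.64 (SE 0.48, adjusted p = 0.0189). By edgeR it was -1.65 (SE 0.51, adjusted p = 0.266), and this value was -0.95 when control replicate 1 was left out, -2.11 for control replicate 2, -2.38 for stressed replicate 1 and -1.16 for stressed replicate 2. The DESeq2 call was lost without control replicate 1 (adjusted p = 0.448) and without stressed replicate 2 (adjusted p = 0.755). With edgeR, Apcdd1 passed without control replicate 2 (adjusted p = 0.0227) and without the low-count filter (0.000504).

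Keratinocyte marker RNA was lower in the same libraries as Rnf43 and Apcdd1. Relative to control replicate 1, the keratinocyte sum was 0.639 in control replicate 2, and 0.402 and 0.361 in stressed replicates 1 and 2. On the same scale Rnf43 was at 0.707, 0.244 and 0.332, and Apcdd1 at 0.449, 0.323 and 0.139. Per 1000 CPM of keratinocyte markers, Rnf43 stood at 1.53 and 1.69 CPM (control) against 0.933 and 1.41 CPM (stressed). Apcdd1 stood at 4.92 and 3.46 CPM (control) against 3.96 and 1.89 CPM (stressed), so on this scale its groups overlapped, while those of Rnf43 remained apart. Scaled to 1000 CPM of melanocyte markers instead, Rnf43 stood at 1.66 and 1.21 CPM (control) against 0.233 and 0.338 CPM (stressed). Apcdd1 was there at 5.33 and 2.47 CPM (control) against 0.991 and 0.453 CPM (stressed). The part of keratinocyte RNA in these results was not tested, and in such bulk libraries fewer cells of a type and less RNA per cell cannot be told apart.

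**Figure D2:**
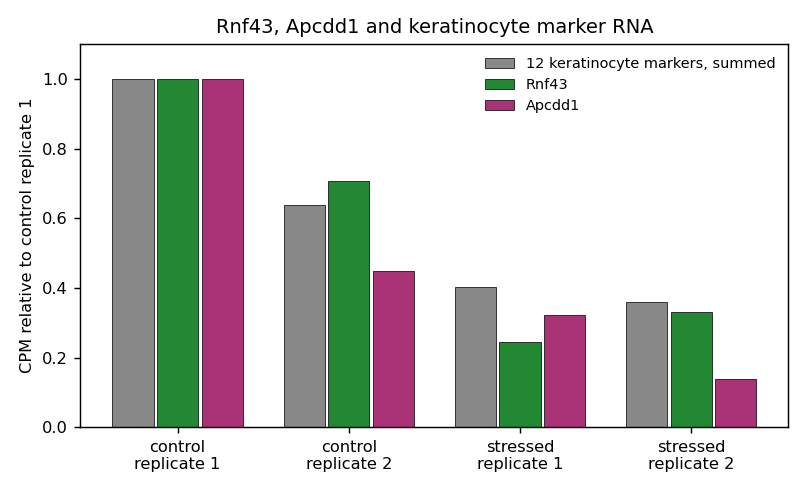
Summed CPM of 12 keratinocyte markers (grey), Rnf43 (green) and Apcdd1 (purple) in each library, as a ratio to control replicate 1, which is 1 by construction. All 3 bars are lower in each stressed library than in either control, with Apcdd1 lowest in stressed replicate 2, at 0.139.

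In CPM the other feedback genes differed less. Axin2 (chromosome 11, 108920349-108950783, mm10, plus strand), which encodes a scaffold of the destruction complex, stood at 32.4 and 31.9 CPM (control) against 30.3 and 23.8 CPM (stressed). The control pair was nearly level and the stressed pair lay just below it, with an edgeR log2 fold change of -0.25 (SE 0.25, adjusted p = 0.747). Without stressed replicate 2 the value was -0.074. Nkd1 (chromosome 8, 88521344-88594887, plus strand), which encodes an inhibitor that binds Dishevelled, stood at 66.0 CPM in control replicate 1 and at 41.9, 42.4 and 41.9 CPM in control replicate 2 and stressed replicates 1 and 2. Control replicate 1 alone lay apart, and the log2 fold change of -0.35 (SE 0.27, edgeR adjusted p = 0.647) was 0.024 without it. Scaled to 1000 CPM of melanocyte markers, Axin2 stood at 1.37 and 1.39 CPM (control) against 0.739 and 0.618 CPM (stressed). Nkd1 stood on that scale at 2.80 and 1.83 CPM (control) against 1.03 and 1.09 CPM (stressed). Both genes were thus apart and lower there, while the marker sum itself was higher in stressed cells. On the keratinocyte marker scale both were apart and higher, while that marker sum was lower in stressed cells. Per 1000 CPM of keratinocyte markers, Axin2 stood at 1.27 and 1.95 CPM (control) against 2.95 and 2.58 CPM (stressed). Nkd1 stood there at 2.58 and 2.56 CPM (control) against 4.13 and 4.54 CPM (stressed). The direction of these 2 genes thus depended on the scale. Of the 5 feedback genes, DESeq2 called 2 lower (Rnf43 and Apcdd1), beside 2.67% of all tested genes, and none higher, beside 1.73%.

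Among the effectors, Ctnnb1 (chromosome 9, 120929216-120960507, mm10, plus strand) was by far the most abundant member. Beta-catenin RNA stood at 1815 and 2238 CPM (control) against 2523 and 2725 CPM (stressed). Both stressed libraries lay above both controls, with an edgeR log2 fold change of 0.37 (SE 0.24, adjusted p = 0.58), and DESeq2 did not call it (adjusted p = 0.419). Per 1000 CPM of melanocyte markers, Ctnnb1 stood at 76.9 and 97.9 CPM (control) against 61.5 and 70.7 CPM (stressed). On this scale the group means were ordered the other way and the groups did not overlap, as the marker sum itself was higher in stressed cells. Ulk4, on the opposite strand, shares 759 exon bases with Ctnnb1 and had between 23 and 48 counts of its own.

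Lef1, on chromosome 3 at 131110471-131224356 (mm10, plus strand), encodes a TCF/LEF factor that mostly activates target genes. It had the fewest counts of the members in the control libraries, 94 and 67, against 166 and 189 in stressed replicates 1 and 2. At 67 counts, counting error alone is 12.2% of the value. In CPM these were 10.1 and 5.68 (control) against 15.6 and 17.2 (stressed). The stressed pair lay close together and above both controls, which were 1.77-fold apart. The edgeR log2 fold change of 1.06 (SE 0.39) had an unadjusted p of 0.0317 and an adjusted p of 0.33, and DESeq2 gave an adjusted p of 0.267. Without control replicate 1 the edgeR value was 1.54 (adjusted p = 0.0515), and without control replicate 2 it was 0.70 (adjusted p = 0.317). An antisense transcript, Gm43352, shares 1208 exon bases with Lef1 and had between 4 and 8 counts of its own in each library.

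Lef1 is also expressed by dermal papilla cells and by the hair matrix. Markers of dermal papilla and fibroblasts (8 genes, led by Vcan and Dcn, with Lum at 0) summed to 15.0 and 23.7 CPM (control) against 41.0 and 39.0 CPM (stressed). Of the 5 tested, 2 lay higher and 1 lower in both stressed libraries, beside 21.8% and 22.9% of all tested genes. Dcn overlapped, at 0.214 and 9.57 CPM (control) against 15.1 and 7.55 CPM (stressed). Markers of the follicle germ and hair matrix (8 genes, most of the sum from Cdh3, with Shh at no more than 3 counts) summed to 775 and 1208 CPM (control) against 1040 and 1226 CPM (stressed). Among these, the inner root sheath keratin gene Krt71 stood at 0.429 and 6.61 CPM (control) against 24.4 and 21.9 CPM (stressed), with a DESeq2 adjusted p of 0.0333. By edgeR its log2 fold change was 2.68 (SE 0.93, adjusted p = 0.315), and 1.82 and 5.72 without control replicates 1 and 2. The part of these cells in the Lef1 values was not tested. Per 1000 CPM of melanocyte markers Lef1 stood at 0.427 and 0.248 CPM (control) against 0.38 and 0.446 CPM (stressed), so its groups overlapped on that scale.

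Tcf7 (chromosome 11, 52252371-52283014, mm10, minus strand), which encodes the factor TCF1, was the most abundant of the TCF/LEF genes per kilobase of exon, though in CPM it lay just below Tcf7l2 in both controls. Its levels were 53.2 and 56.3 CPM (control) against 70.4 and 70.6 CPM (stressed). Both pairs were tight and did not overlap, with an edgeR log2 fold change of 0.36 (SE 0.18, adjusted p = 0.458) that stayed between 0.34 and 0.41 with any library left out. Per 1000 CPM of melanocyte markers the order turned, with Tcf7 at 2.26 and 2.46 CPM (control) against 1.72 and 1.83 CPM (stressed), and the groups were still apart. T cell markers summed to 1.61 and 1.02 CPM (control) against 0.751 and 0.0909 CPM (stressed), and their part in the Tcf7 values was not tested.

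Tcf7l1 (chromosome 6, 72626378-72789254, mm10, minus strand) encodes the factor known as TCF3, which mostly represses target genes. It stood at 10.9 and 14.8 CPM (control) against 18.1 and 18.8 CPM (stressed). The stressed pair lay above both controls, with an edgeR log2 fold change of 0.52 (SE 0.30, adjusted p = 0.539), which was 0.33 when control replicate 1 was left out and 0.76 when control replicate 2 was. Per 1000 CPM of melanocyte markers Tcf7l1 stood at 0.463 and 0.649 CPM (control) against 0.442 and 0.489 CPM (stressed), so its groups overlapped on that scale. Tcf7l2 (chromosome 19, 55741810-55933654, plus strand), which encodes the factor known as TCF4, was nearly level, at 55.3 and 57.7 CPM (control) against 53.4 and 54.8 CPM (stressed). Its edgeR log2 fold change was -0.062 (SE 0.18, adjusted p = 0.936). On the melanocyte marker scale Tcf7l2 stood at 2.34 and 2.52 CPM (control) against 1.30 and 1.42 CPM (stressed), with the groups apart. Per 1000 CPM of keratinocyte markers it stood at 2.16 and 3.53 CPM (control) against 5.20 and 5.94 CPM (stressed). Ctnnb1, Lef1, Tcf7 and Tcf7l1 likewise had both stressed values above both controls on the keratinocyte scale, where the marker sum was lower in stressed cells.

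**Figure D3:**
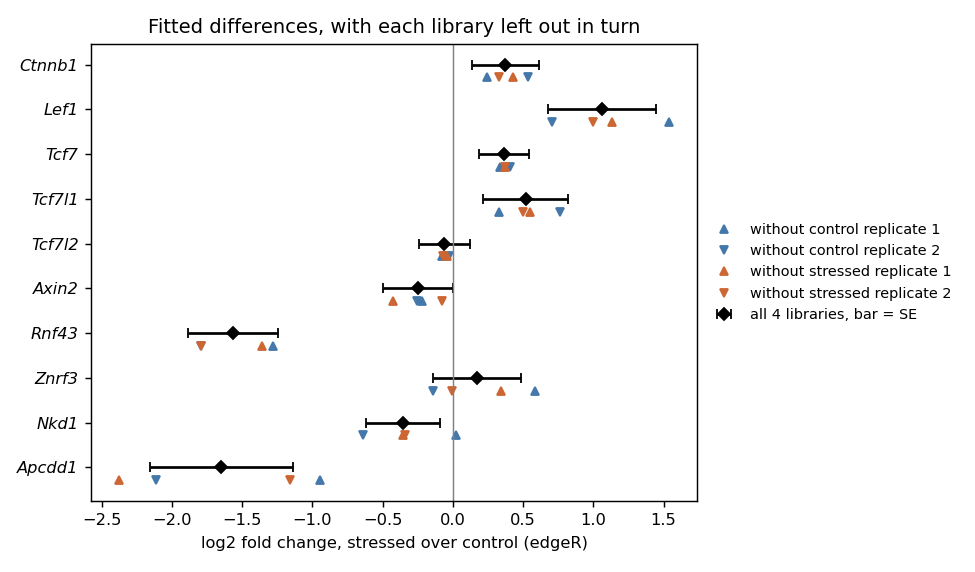
edgeR log2 fold change of each gene, stressed over control (black diamonds, bars are 1 SE), and the same value with each library left out (triangles, blue for a control and orange for a stressed library). Rnf43 and Apcdd1 stay below 0 and Lef1, Tcf7, Tcf7l1 and Ctnnb1 above 0 in each fit shown, while Znrf3 and Nkd1 change sign.

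The make-up of the TCF/LEF transcripts differed between the groups mainly in the share of Tcf7l2. Counted per kilobase of exon, Tcf7l2 made up 20.7% and 20.3% of the 4 factors in the controls but 15.5% and 15.7% in the stressed pair. The share fell by 4.88 percentage points between the group means, which exceeds the SDs of 0.28 and 0.13 points within the groups (n = 2). Tcf7 held 66.4% and 66.1% (control) against 68.2% and 67.4% (stressed). Tcf7l1 held 9.12% and 11.6% (control) against 11.7% and 12.0% (stressed). Lef1 held 3.75% and 1.99% (control) against 4.51% and 4.90% (stressed). The summed level of the 4 factors was 30.5 and 32.5 CPM per kilobase in the controls and 39.3 and 39.9 CPM per kilobase in the stressed libraries, so the lower share of Tcf7l2 stood beside a nearly level amount. No test was run on these shares.

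**Figure D4:**
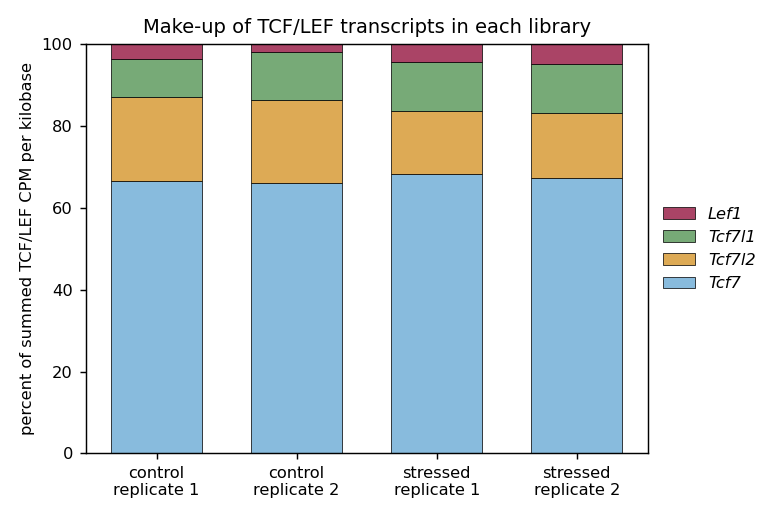
Percent of the summed TCF/LEF level (CPM per kilobase) held by Tcf7, Tcf7l2, Tcf7l1 and Lef1 in each of the 4 libraries, with bars adding to 100. The Tcf7l2 segment is 20.7% and 20.3% (control) against 15.5% and 15.7% (stressed).

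Per kilobase of exon, the members spanned a wide range of levels. In control cells the order was Ctnnb1 (397 CPM per kilobase, mean of 2 libraries), Apcdd1 (32.6), Tcf7 (20.9), Nkd1 (12.1), Tcf7l2 (6.46), Axin2 (5.83), Rnf43 (5.10), Znrf3 (4.14), Tcf7l1 (3.28) and Lef1 (0.896). The libraries of Apcdd1 overlapped those of Tcf7, and each neighbouring pair from Axin2 down to Tcf7l1 also overlapped. In stressed cells Ctnnb1 (515) and Tcf7 (26.9) led, followed by Apcdd1 (10.4), Nkd1 (9.46), Tcf7l2 (6.19), Axin2 (4.92), Tcf7l1 (4.71), Znrf3 (4.65), Lef1 (1.86) and Rnf43 (1.72). Here Apcdd1 and Nkd1, Axin2 and Tcf7l1, Tcf7l1 and Znrf3, and Lef1 and Rnf43 overlapped. Ctnnb1 was above 99.6% of all tested genes on this scale and Lef1 above 16.3%. The file's exon model of Apcdd1 covers 2799 bases against 12884 in GENCODE M21, so its place depends on the model.

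Upstream of these genes, DESeq2 called 2 Wnt ligand genes lower, Wnt3 and Wnt3a, beside 2.67% of all tested genes, and edgeR called none. Of 21 ligand and secretion genes 13 were tested, of which 10 had a negative and 3 a positive log2 fold change, with a median of -0.94. Both stressed values were below both control values in 7 of the 13, beside 22.9% of all tested genes, and above them in none, beside 21.8%. Wnt3, which encodes a canonical Wnt ligand, fell by DESeq2 from 46.2 and 28.0 CPM in the controls to 15.5 and 15.2 CPM (adjusted p = 0.0256). Wnt3a, another canonical ligand, was called lower by DESeq2 (adjusted p = 0.0206), at 66 and 14 counts in the controls and 2 and 0 counts in the stressed libraries. Wnt10a stood at 83.5 and 38.5 CPM (control) against 34.2 and 21.2 CPM (stressed), and Wnt7b at 63.2 and 34.1 and at 22.1 and 23.3 CPM. Neither passed DESeq2 or edgeR. Wls, which encodes the carrier that Wnt proteins need for secretion, overlapped between groups at 248 to 313 CPM. Each of the named ligands was higher in control replicate 1, the library with the most keratinocyte RNA, and the part of keratinocyte RNA was not tested. The DESeq2 call of Wnt3 was lost without control replicate 1 (adjusted p = 0.561), stressed replicate 1 (0.504) or stressed replicate 2 (0.819). That of Wnt3a was lost without stressed replicate 1 (0.123) or stressed replicate 2 (0.636), and without control replicate 1 DESeq2 gave it no adjusted p.

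Of 19 receptor genes 18 were tested, with a median log2 fold change of -0.20. In 3 both stressed values were above both controls and in 8 below, beside 21.8% and 22.9% of all tested genes. Fzd6, which encodes a Frizzled receptor, fell by DESeq2 from 80.7 and 54.3 CPM in the controls to 34.2 and 23.1 CPM (adjusted p = 0.0139). That call was lost without control replicate 1 (adjusted p = 0.3), stressed replicate 1 (0.106) or stressed replicate 2 (0.938). The keratinocyte marker sum had the same order over the 4 libraries as Fzd6, and its part in the Fzd6 values was not tested. Of the receptors with a mean of at least 5 CPM, Fzd2, Fzd6 and Fzd10 had the largest differences, with Fzd2 and Fzd10 at edgeR log2 fold changes of -1.35 (SE 0.56) and -1.08 (SE 0.50), neither called. The most abundant receptor genes per kilobase were Ryk, which encodes a Wnt co-receptor, at 116 to 147 CPM with overlapping groups, and Fzd7, at 122 and 99.1 CPM (control) against 90.7 and 83.2 CPM (stressed).

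Of the 21 secreted agonists and antagonists (a list that also holds the Kremen receptors) 12 were tested, with a median log2 fold change of -0.70. Both stressed libraries were higher for 1 and lower for 5, beside 21.8% and 22.9% of all tested genes. Sostdc1, which encodes a secreted inhibitor of Wnt and BMP signals, fell by DESeq2 from 379 and 248 CPM in the controls to 97.5 and 75.1 CPM, a log2 fold change of -1.86 by edgeR (SE 0.27, adjusted p = 0.121, DESeq2 adjusted p = 5.3e-08). DESeq2 called Sostdc1 lower with each of the 4 libraries left out, at adjusted p values up to 0.015. Its levels had the same order over the 4 libraries as the keratinocyte marker sum, and the part of keratinocyte RNA was not tested. Kremen2, which encodes a DKK co-receptor, stood at 11.5 and 6.69 CPM (control) against 2.07 and 2.91 CPM (stressed), and was not called. Dkkl1 stood at 57.5 CPM in control replicate 1 and between 13.0 and 17.1 CPM in the others. Dkk3, the most abundant of the list, overlapped between groups at 839 to 1404 CPM.

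Of the 21 genes of the destruction complex and Dishevelled all were tested, with a median log2 fold change of 0.093. In both stressed libraries 3 were higher and 2 lower, beside 21.8% and 22.9% of all tested genes. DESeq2 called none, beside 4.4% of all tested genes. Casein kinase genes were the most abundant per kilobase, with Csnk1g2 at 161 to 245 CPM and Csnk1d at 297 to 443 CPM. The largest differences, in Tnks (0.38), Csnk1e (0.37) and Dvl3 (0.30), were each below 2 SE. Tnks encodes a tankyrase that marks axin for degradation, and Dvl3 a Dishevelled protein.

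Of the 20 names listed as nuclear cofactors and repressors 19 were in the files and 18 were tested, with a median log2 fold change of -0.11. The stressed pair was higher for 2 and lower for 8, beside 21.8% and 22.9% of all tested genes. Jup, which encodes plakoglobin, a relative of beta-catenin found in desmosomes, fell by DESeq2 from 955 and 752 CPM in the controls to 549 and 529 CPM (adjusted p = 0.0462), a call lost without control replicate 1 (0.263), stressed replicate 1 (0.69) or stressed replicate 2 (1). Jup too followed the order of the keratinocyte marker sum over the 4 libraries, whose part in it was not tested. Tle2, a gene of the Groucho-family co-repressors, stood at 34.1 and 51.9 CPM (control) against 18.5 and 26.0 CPM (stressed). Tle4, of the same family, stood at 56.3 and 61.1 CPM (control) against 38.3 and 30.3 CPM (stressed). Another gene of the family also lay lower in both stressed libraries, while a further one lay higher, so the family did not move as one. The related Aes was level at 142 to 153 CPM. Tbl1xr1, which encodes a co-repressor exchange factor, had an edgeR log2 fold change of -0.90 (SE 0.38) and was not called.

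Of 30 names listed as textbook Wnt targets 29 were in the files and 21 were tested, with a median log2 fold change of -0.060. Both stressed values lay above both controls in 5 and below in 7, beside 21.8% and 22.9% of all tested genes. Cd44, which encodes a hyaluronan receptor, rose by DESeq2 from 456 and 428 CPM in the controls to 700 and 846 CPM (adjusted p = 0.00363). Nkd2, a paralog of Nkd1, rose by DESeq2 from 46.8 and 29.1 CPM to 65.0 and 90.8 CPM (adjusted p = 0.0497). Jun, an AP-1 gene, stood at 6790 CPM in control replicate 2 and at 1840, 1543 and 1293 CPM in control replicate 1 and stressed replicates 1 and 2. Myc lay lower in both stressed libraries (304 and 368 against 266 and 257 CPM) and passed neither DESeq2 nor edgeR. Ccnd1 stood at 29.9 and 7.12 CPM (control) against 27.1 and 27.6 CPM (stressed). The pigment cell genes of the list were Mitf, at 452 and 292 CPM (control) against 452 and 407 CPM (stressed), and Dct, at 9776 and 11110 and at 15925 and 13834 CPM. Neither passed DESeq2 or edgeR. The DESeq2 call of Cd44 was lost without stressed replicate 1 (adjusted p = 0.214) or stressed replicate 2 (0.972), and that of Nkd2 without control replicate 2 (0.246), stressed replicate 1 (0.297) or stressed replicate 2 (1). Over the 6 lists together 101 genes were tested and 50 lay apart, 14 higher and 36 lower, against 21.8% and 22.9% of all tested genes, and DESeq2 called 2 higher and 5 lower, beside 1.73% and 2.67% of all tested genes. edgeR called none of the 101, with 19 at an unadjusted p below 0.05, beside 12.8% of all tested genes.

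**Figure D5:**
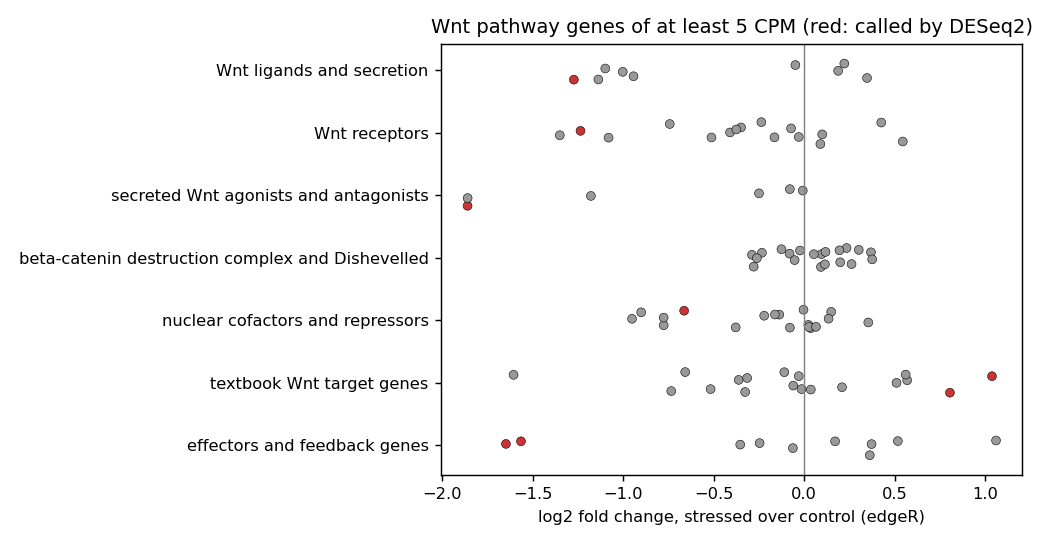
edgeR log2 fold changes, stressed over control, of the genes with a mean of at least 5 CPM in each Wnt list and of the 10 effectors and feedback genes, 1 point per gene (vertical scatter has no meaning). Red points, called by DESeq2, lie below 0 in the ligand, receptor, antagonist, cofactor and feedback rows and above 0 among the targets. Wnt3a, also called lower by DESeq2, has a mean of 2.11 CPM and is not plotted.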

How the data were processed

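RNA from 2 control and 2 stressed libraries had been counted by the authors with featureCounts 1.6.1 into whole-number counts per gene name, per the file headers, with a minimum mapping quality of 30 against an mm10 annotation and no strand or paired-end option. Reads of overlapping antisense genes therefore cannot be told apart by strand. Tools named in the submitters' processing notes are STAR 2.5.3, Trim Galore 0.4.1 and DESeq2 1.22.2. The headers of stressed replicates 1 and 2 carry the numbers 2 and 3. Gene lengths are those in the deposited count files.

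Genes were filtered with filterByExpr (minimum count 10), scaled by TMM and tested two-sided by the quasi-likelihood method of edgeR 4.0.16 (R 4.3.3), adjusted by Benjamini-Hochberg over 13348 genes. Alternatives were DESeq2 1.42.0, limma-voom (limma 3.58.1), other scalings and filters, the replicate block and each library left out. Ratios to marker sums, and DESeq2 with a library left out, were added after seeing the data. The members and lists were chosen with earlier results of these data known. Named are the 10 members and, per other Wnt list, the 2 most abundant per kilobase, the 3 largest differences at a mean of at least 5 CPM, and each gene called, with Mitf, Dct, Ccnd1 and Myc and the 2 most abundant markers per cell type. The result of 1 marker list is not reported here. A planned protein comparison was not made, since protein sequences were not used here. A count of 0 allows up to 3 counts, or 0.254 to 0.321 CPM, for counting error only.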

Additional observations from a re-analysis of the deposited data

How the results depend on the processing

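With 2 libraries a group, the calls depended on the test, the filter and single libraries. Over all genes 0 were called in the main analysis, with size factors, upper-quartile scaling, the filter of at least 5 CPM, limma-voom or the replicate block, against 587 by DESeq2 and 760 without a low-count filter. With 1 library left out edgeR called between 0 and 739, and DESeq2 477 and 800 without control replicates 1 and 2 and 142 and 44 without stressed replicates 1 and 2. Of the 10 members 2 were called (Rnf43 and Apcdd1) by DESeq2 and without a filter, between 0 and 2 by edgeR with a library left out, and between 0 and 2 by DESeq2 likewise. Of the other Wnt genes 7 were called by DESeq2, 9 without a filter, between 0 and 10 by edgeR with a library left out, and 6, 12, 1 and 1 by DESeq2 without control replicates 1 and 2 and stressed replicates 1 and 2. The replicate block, whose numbers the labels do not tie to animals, left 0 calls and gave Rnf43 and Apcdd1 adjusted p values of 0.12 and 0.0565. The difference between replicates 1 and 2 correlated across genes at 0.172 between the groups.

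The TCF/LEF shares kept their directions without length scaling, the only alternative run on them. Tcf7l1 then held a mean of 9.73% in the controls and 11.6% in the stressed libraries. Without length scaling the stressed minus control differences were 4.27 points for Lef1, 2.71 for Tcf7 and -8.84 for Tcf7l2, since Lef1 and Tcf7l2 have long exon models. Among the members and the named genes of the Wnt lists the direction turned in 9, in each case only with a library left out. Cell type markers outside these lists were not counted. Without control replicate 2 Znrf3 was at -0.14, Aes at -0.00096, Dkk3 at 0.17, Ryk at -0.069, Mitf at -0.068 and Ccnd1 at -0.13, with DESeq2 values of -0.14, 0.17, -0.067, -0.067 and -0.12 for all but Aes. Without control replicate 1 Nkd1 was at 0.024, Dkkl1 at 0.26 and Wls at 0.14, with DESeq2 values of 0.016, 0.26 and 0.13. Without stressed replicate 2 Znrf3 was at -0.0084 and Aes at -0.016, with DESeq2 values of -0.0090 and -0.016. Over the 4 edgeR fits with a library left out the highest or lowest opposite values were 0.58 for Znrf3, -0.64 for Nkd1, 0.081 for Aes, -0.56 for Dkk3, -1.88 for Dkkl1, 0.28 for Ryk, -0.20 for Wls, 0.57 for Mitf and 1.95 for Ccnd1. The cause was not tested.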
